A study of Mus musculus with 4 samples.

Results

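The transcription factors Sox9, Lhx2, Nfatc1, Tcf3, Tbx1, Foxc1, Runx1, Gata3, Trp63 and Vdr have been tied to the specification, quiescence or upkeep of hair follicle stem cells. These 10 genes were taken by symbol from the 24346 gene symbols in the RNA-seq data of cultured mouse hair follicle cells. All 10 symbols were listed, and 7 of them were expressed highly enough to be tested. In the annotation, however, Tcf3 is an E protein gene, and the hair follicle factor long called Tcf3 is now named Tcf7l1. Cells from the dorsal skin of 4-week-old C3H/HeN mice had been sorted for CD49f and CD34 and then passaged weekly in the serum-free medium M-CnT. RNA was compared between cells after 10 passages (10p-HFSCs, 2 libraries) and after 48 passages (48p-HFSCs, 2 libraries). Both groups are cultured descendants of sorted cells and not follicles. The sources used here do not say whether the 2 libraries of a group came from separate cultures or mice, so p-values measure only the spread between these libraries, which may be technical.

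Hair follicle stem cells rest in the bulge, below the sebaceous gland, and are called on in each hair cycle to rebuild the lower follicle. Sox9 is needed to set up and keep this population, Lhx2 and the T cell factor family member Tcf7l1 hold the cells in an undifferentiated state, and Nfatc1 and Foxc1 support quiescence. Tbx1 supports self-renewal, Runx1 promotes entry into the growth phase, Gata3 directs the inner root sheath lineage, Trp63 encodes p63, the master factor of stratified epithelia, and the vitamin D receptor gene Vdr is required for hair cycling.

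Expression was given as FPKM, defined as the fragments of a gene scaled by its exon length and by the mapped fragments of the library. The genes were compared on the log2(FPKM + 1) scale with limma. A gene was called higher or lower in 48p-HFSCs at an absolute log2 difference of 1 or more with an adjusted p under 0.05 (Benjamini-Hochberg, over 11018 tested genes). Differences on this scale understate the change of low genes. Only genes at 1 FPKM or more in 2 or more libraries were tested. A gene below 1 FPKM in both libraries of a group therefore passed only through the other group, and had to differ to be tested. Among the called genes named below, Gata3, Ovol1, Ehf, Tle4, Cd74 and Lyz2 passed only through 48p-HFSCs. Sox2, Nfatc2, Col1a2, Maf, Ovol2, Foxq1 and Tle2 passed only through 10p-HFSCs. Their calls are therefore not independent of the filter. The FPKM values summed to between 581500 and 1415000 per library. Relative to replicate 1 of 10p-HFSCs, whose depth was set to 100%, the others had an estimated 71.6%, 82.9% and, in replicate 2 of 48p-HFSCs, 46.7% of its depth. The absolute depth is unknown. Of 67 genes that every cell uses, 0 were listed at 0 in any library. The median log2 difference over all tested genes was -0.03, and it was -0.56 after rescaling each library to TPM, which sets all library sums equal. In bulk RNA, fewer cells of a type and less RNA per cell cannot be told apart.

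The sorted identity was checked against marker genes. The basal keratinocyte keratins Krt5 and Krt14 were high in every library, at 1473 FPKM or more for Krt5 and 1217 FPKM or more for Krt14. RNA of Cd34, the surface marker of the bulge sort, was at most 0.234 FPKM in any library, and Lgr5, another stem cell marker, at most 0.0303 FPKM. Krt15, a bulge keratin, was at 136 and 82.6 FPKM in 10p-HFSCs and at 425 and 18.8 FPKM in 48p-HFSCs, so the 48p values lay on either side of the 10p values. Basal keratinocyte markers were thus strong while the RNA of the 2 defining bulge markers Cd34 and Lgr5 was near 0. This differs from the paper, in which antibody staining found CD34 protein on most cells at both passages. Its qRT-PCR also reported that CD34 expression was maintained. The low FPKM of Cd34 is therefore no measure of CD34 protein.

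The 10 factors did not move as a block between passages. Sox9, Tcf3 (here the E protein gene and not Tcf7l1) and Runx1 fell, Gata3 rose, and Foxc1, Trp63 and Vdr did not pass the test. Lhx2, Nfatc1 and Tbx1 were at or near 0 at both passages and were not tested. Of all tested genes, 10.8% were called higher and 9.15% lower, against 1 higher and 3 lower among the 7 factors tested. After TPM rescaling, 623 genes were called higher and 812 lower, in place of 1189 and 1008, and of the factors 0 were higher and 1, Sox9, was lower. The libraries of 48p-HFSCs all lay above those of 10p-HFSCs for 2 of the 7 (Gata3 and Vdr) and all below for 4 (Sox9, Tcf3, Foxc1 and Runx1), on the FPKM scale, beside 31.7% and 34.3% of all tested genes. With 7 genes, these shares are a description only. The median log2 difference of the 7 was -0.95.

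**Figure D1:**
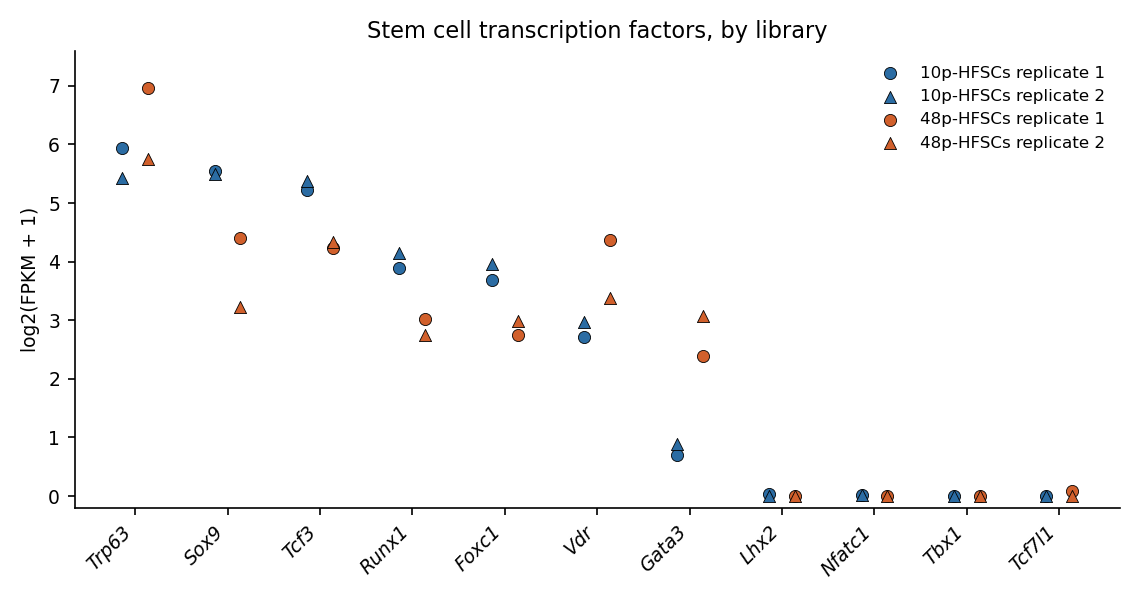
Expression of the 10 factors and of Tcf7l1 as log2(FPKM + 1) (vertical axis), with blue for 10p-HFSCs, orange for 48p-HFSCs, circles for replicate 1 and triangles for replicate 2. Sox9, Tcf3, Foxc1 and Runx1 have both 48p points below both 10p points, Gata3 and Vdr have both above (Vdr not in TPM), Trp63 overlaps, and Lhx2, Nfatc1, Tbx1 and Tcf7l1 lie at or near 0.

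Sox9, an SRY-box factor required for the bulge lineage, is encoded on mouse chromosome 11 (GRCm38, chr11:112782224-112787760, plus strand) by a single annotated transcript of 4135 bases. It was expressed at 45.6 and 44.2 FPKM in 10p-HFSCs and at 20.2 and 8.31 FPKM in 48p-HFSCs. Both 48p libraries were below both 10p libraries, and they differed from each other more than the 10p libraries did. Mean expression was 44.9 ± 0.991 FPKM (SD, n = 2) at 10 passages and 14.3 ± 8.41 FPKM (SD, n = 2) at 48 passages, a 3.15-fold lower mean. The log2 difference was -1.71 (SE 0.42, adjusted p = 0.039). Measured from the mean of 10p-HFSCs, the log2 difference was -1.12 for replicate 1 and -2.30 for replicate 2 of 48p-HFSCs. The direction can also be read within each library without comparing scales: among all listed genes, Sox9 stood at percentiles 92.6 and 92.1 in the 10p libraries and at percentiles 84.7 and 74.1 in the 48p libraries. Sox9 stayed called after TPM rescaling (log2 difference -2.26, adjusted p = 0.03). With no filter on low values its adjusted p was 0.085. The paper's own qRT-PCR, scaled to beta-actin, reported a significant increase of Sox9 in 48p-HFSCs. That direction is opposite to the FPKM values here, and the cause of the difference was not tested.

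None of its listed relatives in the SRY-box family was called higher, and Sox8, Sox10 and Sox21 were listed at 0 in every library. Sox4, known from epithelial progenitors, was at 15.8 and 9.11 FPKM in 10p-HFSCs and at 10.6 and 2.17 FPKM in 48p-HFSCs, with overlapping groups. Sox2, which in skin marks dermal papilla cells and sensory Merkel cells, was at 14.3 and 13.8 FPKM in 10p-HFSCs and was listed at 0 in both 48p libraries (log2 difference -3.91, SE 0.25, adjusted p = 0.00092).

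Lhx2, a LIM homeobox factor of the bulge (chr2:38339281-38369733, plus strand), was at 0.0241 FPKM in replicate 1 of 10p-HFSCs and listed at 0 in the other libraries. Its paralogs were at or near 0 too, except for Lhx6, a LIM homeobox gene best known from neurons and teeth. Lhx6 was at 3.36 and 4.87 FPKM in 10p-HFSCs and at 1.28 and 1.26 FPKM in 48p-HFSCs, and fell (log2 difference -1.15, SE 0.28, adjusted p = 0.035). Ldb1, the cofactor that bridges LIM homeodomain proteins, was at 91.3 and 119 FPKM in 10p-HFSCs and at 63.5 and 45.7 FPKM in 48p-HFSCs (log2 difference -0.94, adjusted p = 0.08). The cofactor was therefore abundant in libraries in which the RNA of Lhx2 itself was almost not measured. By contrast, the paper's qRT-PCR reported a significant increase of Lhx2 in 48p-HFSCs, again without naming the reference passage in its text.

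Nfatc1 (chr18:80606205-80713071, minus strand) encodes a factor that enters the nucleus after dephosphorylation by the phosphatase calcineurin. It was at 0.0119 and 0.0159 FPKM in 10p-HFSCs and listed at 0 in 48p-HFSCs. Other family members made up nearly all the RNA of the calcium-regulated NFAT genes, which summed to 27.4 and 21.8 FPKM in 10p-HFSCs and to 9.71 and 4.91 FPKM in 48p-HFSCs. Nfatc3 fell from 23.8 and 17.95 FPKM to 9.64 and 4.77 FPKM (log2 difference -1.47, SE 0.38, adjusted p = 0.044). Nfatc2 fell from 3.598 and 3.803 FPKM to 0.0109 FPKM and a listed 0 (log2 difference -2.23, SE 0.23, adjusted p = 0.0024).

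The phosphatase moved the other way. Ppp3ca, a catalytic subunit of calcineurin, was at 17.4 and 17.6 FPKM in 10p-HFSCs and at 146 and 149 FPKM in 48p-HFSCs. The groups were far apart and the libraries of each group close together. Ppp3ca rose by a log2 difference of 3.002 (SE 0.24, adjusted p = 0.0012), and the 3 catalytic subunits together went from 33.3 and 31.5 FPKM to 165 and 171 FPKM. Ppp3cb (0.72, adjusted p = 0.1), Ppp3cc (-0.67, adjusted p = 0.16) and the regulatory subunit gene Ppp3r1 (-0.24, adjusted p = 0.55) were not called, so the higher sum was carried by Ppp3ca. Rcan1, whose transcription calcineurin and NFAT raise in other cells, was at 13.7 and 16.6 FPKM in 10p-HFSCs and at 20.5 and 8.99 FPKM in 48p-HFSCs, with overlapping groups.

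The symbol Tcf3 stands in the annotation for an E protein, a basic helix-loop-helix factor that binds E boxes (chr10:80409514-80433647, minus strand, 14 annotated transcripts). The T cell factor that hair follicle work long called Tcf3 is the gene now named Tcf7l1 (chr6:72626378-72789254, minus strand), for which RefSeq lists Tcf3 as a synonym. Both were therefore examined. Tcf7l1 was at 0.0671 FPKM in replicate 1 of 48p-HFSCs and listed at 0 in the other 3 libraries, and its relative Tcf7l2 was listed at 0 or at most at 0.0758 FPKM. Neither of these T cell factors passed the filter.

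The E protein gene Tcf3 was at 36.2 and 40.8 FPKM in 10p-HFSCs and at 17.8 and 19.2 FPKM in 48p-HFSCs, with a clear gap between the groups. Means were 38.5 ± 3.25 FPKM and 18.5 ± 0.993 FPKM (SD, n = 2 each), a 2.08-fold lower mean at 48 passages. The log2 difference of -1.01 (SE 0.24, adjusted p = 0.036) lay just past the fold limit, and Tcf3 stood just inside it while Foxc1, at -0.95, stood just outside. Tcf3 was not called after TPM rescaling (adjusted p = 0.054), after a correction for transcript length and GC content (log2 difference -0.94), without either 10p library (adjusted p = 0.29 and 0.34) or without replicate 1 of 48p-HFSCs (log2 difference -0.963). The other E protein genes lay lower as well. Tcf4, an E protein and not a T cell factor despite its symbol, fell from 6.36 and 5.02 FPKM to 2.02 and 1.49 FPKM (log2 difference -1.28, SE 0.28, adjusted p = 0.028), and Tcf12 was at 21.5 and 19.0 FPKM against 12.8 and 8.53 FPKM (log2 difference -0.89, adjusted p = 0.084).

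The 3 E protein genes summed to 64.0 and 64.8 FPKM in 10p-HFSCs and to 32.6 and 29.2 FPKM in 48p-HFSCs. The Id genes encode proteins that pair with E proteins and keep them off DNA, and they summed to 127 and 154 FPKM in 10p-HFSCs and to 264 and 233 FPKM in 48p-HFSCs, a gap between groups that was absent after TPM rescaling (219 and 214 against 396 and 165 TPM). The ratio of Id to E protein RNA, which does not depend on the scale of a library, was 1.99 and 2.38 in the 10p libraries and 8.10 and 7.98 in the 48p libraries. The ratio was not recomputed after the length and GC correction, after which the log2 difference was 0.42 for Id1, -0.94 for Tcf3 and -0.59 for Tcf12. Within the Id genes only Id2 was called. Id2 rose from 4.62 and 4.47 FPKM to 37.15 and 16.3 FPKM (log2 difference 2.21, SE 0.42, adjusted p = 0.018), and was not called after TPM rescaling (adjusted p = 0.16). Id1 was the most abundant, at 73.7 and 95.5 FPKM against 150 and 184 FPKM (log2 difference 0.98, adjusted p = 0.072), and Id3 overlapped between the groups. Tcf3 made up 56.5% and 62.9% of the E protein sum in the 10p libraries and 54.7% and 65.7% in the 48p libraries.

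**Figure D2:**
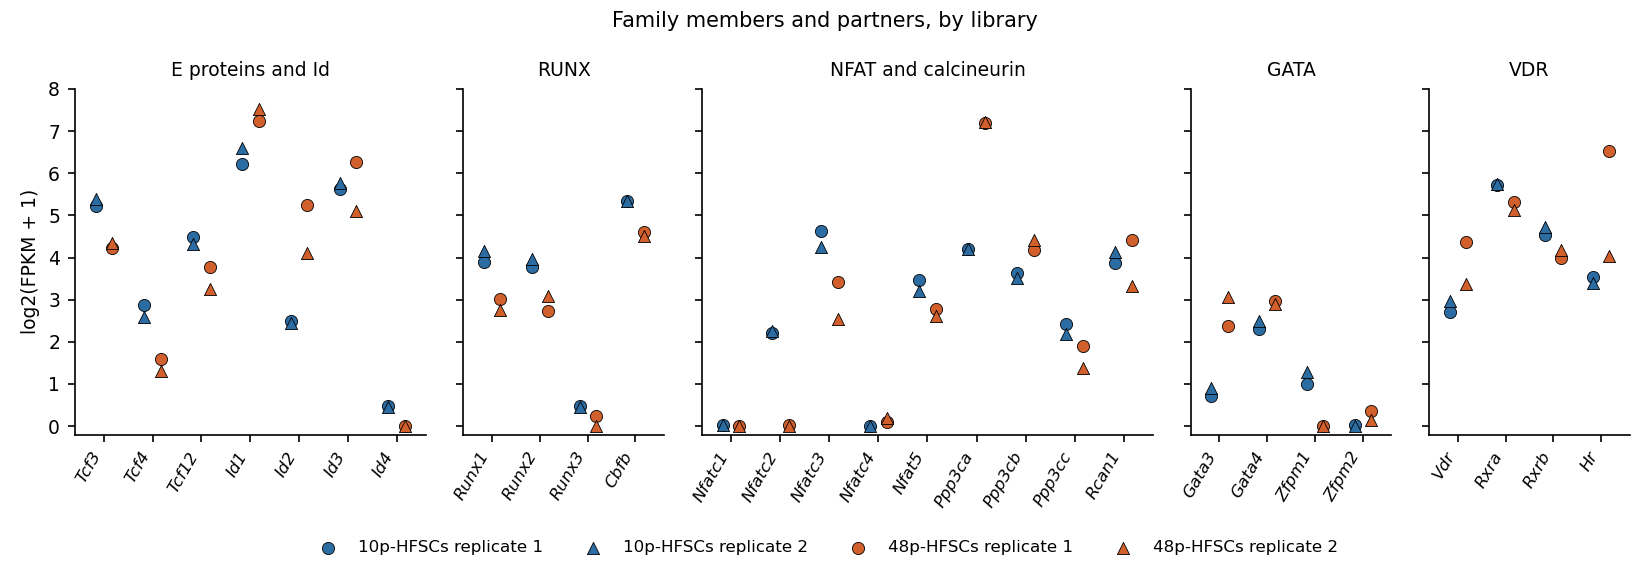
Expression as log2(FPKM + 1) (vertical axis) of single genes in 5 panels, each holding a family of factors with its partners, with blue for 10p-HFSCs, orange for 48p-HFSCs, circles for replicate 1 and triangles for replicate 2. The E protein and RUNX genes and Cbfb have both 48p points below both 10p points, Ppp3ca has both 48p points far above, and Id3, Rcan1 and the low genes Nfatc1 and Nfatc4 show no large gap.

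Tbx1, a T-box factor that supports bulge cell self-renewal (chr16:18580979-18590671, minus strand), was listed at 0 in all 4 libraries. Of its 6 paralogs on the list, only Tbx15, a T-box gene of dermal and skeletal development, passed the filter. Tbx15 was at 7.14 FPKM in both 10p libraries and at 10.4 and 5.04 FPKM in 48p-HFSCs, with overlapping groups.

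Foxc1, a forkhead factor of quiescent bulge cells, has a single annotated transcript of 5844 bases (chr13:31806633-31812476, plus strand). It was at 11.8 and 14.6 FPKM in 10p-HFSCs and at 5.72 and 6.94 FPKM in 48p-HFSCs, and the groups did not overlap. The means of 13.2 ± 1.95 FPKM and 6.33 ± 0.865 FPKM (SD, n = 2 each) gave a log2 difference of -0.95 (SE 0.28, adjusted p = 0.061), which missed both limits. Without replicate 2 of 48p-HFSCs it was called lower (log2 difference -1.07, adjusted p = 0.017).

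Runx1, the DNA-binding subunit of core binding factor and a driver of the telogen to anagen transition (chr16:92601466-92826149, minus strand, 7 transcripts), was at 13.9 and 16.7 FPKM in 10p-HFSCs and at 7.13 and 5.73 FPKM in 48p-HFSCs. The groups were well separated. Mean expression was 15.3 ± 1.98 FPKM against 6.43 ± 0.989 FPKM (SD, n = 2 each), a 2.38-fold lower mean, and the log2 difference was -1.13 (SE 0.28, adjusted p = 0.038). Exons of Runx1 overlap those of the antisense gene Gm26626, and the strand setting of the counting is not given in the sources used here, so reads of the pair may not be told apart. Other genes of chromosome 16, which also carries Trp63, had a median log2 difference of -0.40 over 339 tested genes, and the part of this shift in the Runx1 difference was not tested. Runx1 was not called after TPM rescaling (adjusted p = 0.14), with no filter on low values (adjusted p = 0.066), after a correction for transcript length and GC content (log2 difference -0.84, adjusted p = 0.067), without either 10p library (adjusted p = 0.18 and 0.3) or without replicate 2 of 48p-HFSCs (log2 difference -0.997).

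The other genes of core binding factor were lower in the same libraries without passing the test. Runx2, best known from bone, was at 12.8 and 14.7 FPKM in 10p-HFSCs and at 5.64 and 7.52 FPKM in 48p-HFSCs (log2 difference -0.97, adjusted p = 0.061). Cbfb, the shared partner that stabilises RUNX proteins on DNA, was at 39.6 and 39.7 FPKM against 23.2 and 21.8 FPKM (log2 difference -0.79, adjusted p = 0.066). The sum of the RUNX genes per unit of Cbfb was 0.684 and 0.80 in the 10p libraries and 0.557 and 0.609 in the 48p libraries, a smaller shift than that of the Id to E protein ratio.

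Promoter sequence was available for 7 of the 10 factors in RefSeq's table (GRCm38.p6), and for 6 of them the 250 bases upstream of the start were mostly outside annotated exons and were searched. Each set of letters was searched on both strands, and its share is that of 32851 promoter windows of 250 bases that hold it. The GATA letters GATAA occurred in 22.6% of these windows, and the RUNX letters TGTGGT in 14.0%. The T cell factor letters CTTTGA occurred in 13.8%, the SRY-box letters ACAATG in 10.7% and the NFAT letters GGAAAA in 20.4%. The homeodomain letters TAATTA were found in 4.8% and the forkhead letters GTAAACA in 3.2%. The nuclear receptor letters AGGTCA were found in 14.0%, the E box CAGGTG in 17.2% and the T-box letters AGGTGTGA in 1.1%. Lhx2, Tbx1, Tcf3 and Runx1 held none of these motifs. Foxc1 and Vdr are shown because they held matches to families whose members differed between the passages, set in capitals: a RUNX and an NFAT match upstream of Foxc1 (plus strand, chr13:31806396-31806632) and an E box match upstream of Vdr (minus strand, chr15:97908311-97908546). The windows end before the first base of an annotated exon, and that of Vdr lies inside the gene, upstream of a start other than the outermost one. A match of 6 letters is a description of the sequence and no evidence of binding.
Foxc1: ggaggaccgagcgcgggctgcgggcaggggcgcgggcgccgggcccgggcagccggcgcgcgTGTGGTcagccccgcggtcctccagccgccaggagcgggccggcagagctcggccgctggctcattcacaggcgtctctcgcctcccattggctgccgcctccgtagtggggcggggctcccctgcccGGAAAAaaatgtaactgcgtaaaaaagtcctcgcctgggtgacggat
Vdr: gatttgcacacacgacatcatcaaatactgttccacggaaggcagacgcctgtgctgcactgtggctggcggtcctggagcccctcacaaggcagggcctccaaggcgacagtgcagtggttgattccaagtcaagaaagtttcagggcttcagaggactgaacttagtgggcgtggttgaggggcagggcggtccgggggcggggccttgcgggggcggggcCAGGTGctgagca

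Gata3, a zinc finger factor of the inner root sheath and of epidermal barrier formation (chr2:9857078-9890034, minus strand, 6 transcripts), was the factor that rose. It was at 0.633 and 0.861 FPKM in 10p-HFSCs and at 4.23 and 7.40 FPKM in 48p-HFSCs, and the groups were far apart. Mean expression was 0.747 ± 0.161 FPKM against 5.82 ± 2.24 FPKM (SD, n = 2 each), 7.78-fold higher at 48 passages. The log2 difference was 1.93 (SE 0.32, adjusted p = 0.012). Gata3 passed the filter only through the 48p libraries, so a gene at its low 10p level had to differ in order to be tested. Its exons overlap the antisense gene Gm13256 and the gene 9230102O04Rik on the same strand, whose reads may be shared. Its percentile among all listed genes went from 55.8 and 56.6 in the 10p libraries to 64.8 and 72.8 in the 48p libraries. It was not called after TPM rescaling (log2 difference 1.66, adjusted p = 0.074) or without replicate 1 of 10p-HFSCs (1.83, adjusted p = 0.057).

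The other GATA gene above the filter was Gata4, a factor of endoderm and heart, at 3.95 and 4.60 FPKM in the 10p libraries and 6.80 and 6.50 FPKM in the 48p libraries (log2 difference 0.54, adjusted p = 0.2). Gata3 made up 13.8% and 15.6% of the summed GATA RNA in the 10p libraries and 37.8% and 53.0% in the 48p libraries. Gata4 was the larger part of that sum in the 10p libraries, and the share of Gata3 was higher in both 48p libraries. Zfpm1, a FOG cofactor of GATA factors, was at 0.983 and 1.42 FPKM in 10p-HFSCs, was listed at 0 in 48p-HFSCs and was too low to be tested.

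Trp63, the gene of p63 (chr16:25683763-25892102, plus strand, 8 transcripts), was at 60.4 and 42.0 FPKM in 10p-HFSCs and at 124 and 52.7 FPKM in 48p-HFSCs. Replicate 1 of 48p-HFSCs was above both 10p libraries and replicate 2 lay between them, so the groups overlapped. The means of 51.2 ± 13.0 FPKM and 88.2 ± 50.3 FPKM (SD, n = 2 each) gave a log2 difference of 0.67 (SE 0.46, adjusted p = 0.33). This value rested on 1 library: without replicate 2 of 48p-HFSCs it was 1.28 (adjusted p = 0.01), and without replicate 1 it was 0.06 (adjusted p = 0.87). FPKM values per gene do not separate the long and short p63 isoforms. Its relatives Trp53 (log2 difference -0.45, adjusted p = 0.24) and Trp73 (-0.86, adjusted p = 0.11) were not called.

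Genes described elsewhere as regulated by these factors, most of them targets of p63, were tested singly and counted as a list. The list as a whole was not tested. Of 18 genes, 15 were tested, 5 were higher and 0 lower, with a median log2 difference of 1.03. Among all tested genes the shares were 10.8% higher and 9.15% lower. The genes called included the adhesion genes Itga6, Itgb4 and Lamb3, which anchor basal cells to the basement membrane. Lamb3 was at 57.8 and 44.7 FPKM in 10p-HFSCs and at 139 and 246 FPKM in 48p-HFSCs (log2 difference 1.84, SE 0.37, adjusted p = 0.022). Itga6, the CD49f of the sort, was at 31.4 and 20.8 FPKM against 100.998 and 79.03 FPKM (1.77, SE 0.31, adjusted p = 0.014). Krt5 (adjusted p = 0.18) and Krt14 (adjusted p = 0.28), at 1805, 1473, 8156 and 5120 FPKM and at 1423, 1217, 3896 and 2439 FPKM in the 4 libraries, did not overlap between groups but were not called. After TPM rescaling 2 genes of the list were higher, Lamb3 and, with a log2 difference of 1.40 (adjusted p = 0.04), Krt5, and 1 was lower, the cell cycle kinase gene Cdk4, while Itga6 and Itgb4 were not called.

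Vdr (chr15:97854425-97910630, minus strand, 6 transcripts) was at 5.55 and 6.84 FPKM in 10p-HFSCs and at 19.7 and 9.38 FPKM in 48p-HFSCs. Both 48p libraries were above both 10p libraries, but replicate 1 far more than replicate 2, and after TPM rescaling the groups overlapped (9.54 and 9.52 against 29.6 and 6.63 TPM). Mean expression was 6.20 ± 0.915 FPKM against 14.5 ± 7.30 FPKM (SD, n = 2 each), and the log2 difference of 1.03 was not called (SE 0.39, adjusted p = 0.12). Without replicate 2 of 48p-HFSCs it was called higher (log2 difference 1.53, adjusted p = 0.003). Other genes of chromosome 15 had a median log2 difference of 0.30 over 417 tested genes, and the part of this in the Vdr value was not tested.

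Vdr binds DNA as a pair with a retinoid X receptor. Rxra was at 51.5 and 52.8 FPKM in 10p-HFSCs and at 38.9 and 34.1 FPKM in 48p-HFSCs (log2 difference -0.51, adjusted p = 0.19), and Rxrb had a log2 difference of -0.54 (adjusted p = 0.18). The ratio of Vdr to summed RXR RNA was 0.0754 and 0.0874 in the 10p libraries and 0.366 and 0.183 in the 48p libraries, so Vdr RNA was scarcer than that of its partners in every library. Hr, the hairless corepressor that binds Vdr and is needed for the hair cycle, was at 10.7 and 9.56 FPKM in 10p-HFSCs and at 90.8 and 15.4 FPKM in 48p-HFSCs (log2 difference 1.81, SE 0.76, adjusted p = 0.15). Like Vdr, Hr was highest in replicate 1 of 48p-HFSCs. Cyp24a1, the vitamin D degrading enzyme that active Vdr induces, was at most 0.0572 FPKM.

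**Figure D3:**
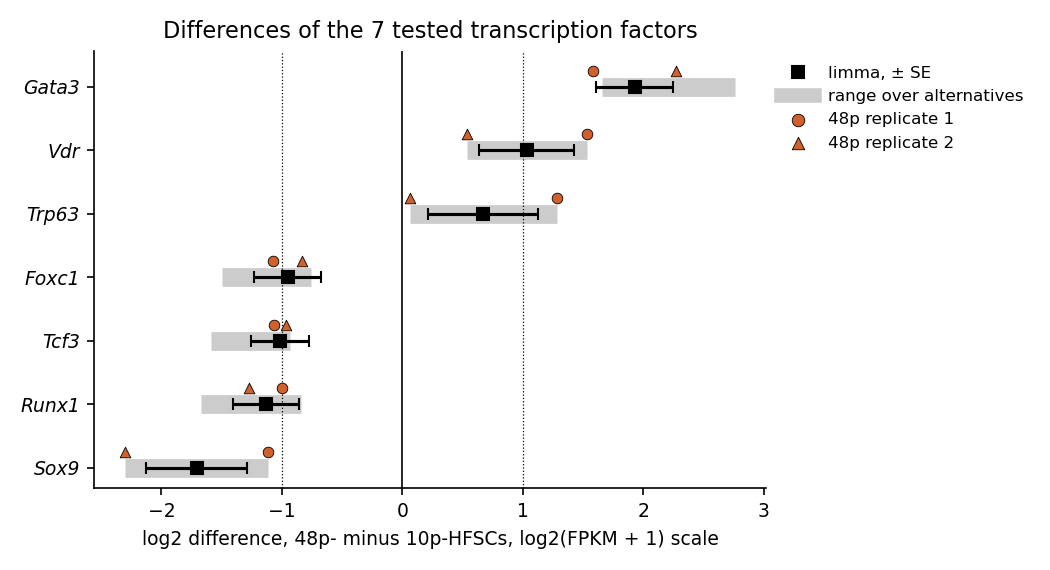
Log2 difference of 48p-HFSCs minus 10p-HFSCs on the log2(FPKM + 1) scale (horizontal axis) for the 7 factors tested, with squares and bars for the limma estimate and its SE, grey bands for the range over the alternatives, orange symbols for each 48p library minus the 10p mean, and dotted lines at the fold limit of 1. No grey band crosses 0; Gata3 (1.93), Sox9 (-1.71), Runx1 (-1.13) and Tcf3 (-1.01) were called, and Foxc1, Trp63 and Vdr were not.

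The order of the factors, compared per length as FPKM, changed with passage. In 10p-HFSCs the means ran from Trp63 (51.2 FPKM) through Sox9 (44.9), Tcf3 (38.5), Runx1 (15.3), Foxc1 (13.2) and Vdr (6.20) to Gata3 (0.747). Of the neighbours in this order, Trp63 and Sox9 overlapped between libraries, as did Runx1 and Foxc1. In 48p-HFSCs Trp63 was again first, at 88.2 FPKM, and was followed by Tcf3, Vdr and Sox9, at 18.5, 14.5 and 14.3 FPKM with overlapping libraries, and by Runx1, Foxc1 and Gata3, at 6.43, 6.33 and 5.82 FPKM with overlapping libraries. Sox9, level with Trp63 at 10 passages, was below it in both libraries at 48 passages.

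The neighbouring factors of the skin epithelium were counted in 3 lists. Their counts of calls stand beside 10.8% higher and 9.15% lower among all tested genes. Of 11 stem cell factors outside the 10, which include Tcf7l1, 8 were tested, 0 were higher and 1 was lower, with a median log2 difference of -0.24. The gene that fell was Foxp1, a forkhead factor of quiescence, from 15.2 and 15.8 FPKM to 7.74 and 4.58 FPKM (log2 difference -1.24, SE 0.32, adjusted p = 0.044). Foxp1 was not called after TPM rescaling (adjusted p = 0.13), after the length and GC correction (log2 difference -0.905) or without replicate 2 of 48p-HFSCs (-0.913), which left 0 of these factors lower in each case. Nfib, a nuclear factor I gene that coordinates hair follicle and melanocyte stem cells, was at 5.86 and 7.27 FPKM in 10p-HFSCs and at 12.2 and 13.0 FPKM in 48p-HFSCs (0.85, adjusted p = 0.076). After the length and GC correction Nfib was called higher (1.23), the 1 factor of this list called in that setting.

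Of 14 factors of the hair lineages and matrix, 7 were listed at 0 in all libraries, among them Hoxc13, Msx1, Msx2, Dlx3 and Foxi3, and 5 were tested. Of these 5, Foxn1 and Ovol1 were higher and Foxq1 and Barx2 lower, with a median log2 difference of -0.45. Foxn1, the nude gene of hair shaft differentiation, rose from 2.56 and 3.26 FPKM to 14.5 and 6.84 FPKM (1.502, SE 0.39, adjusted p = 0.047). Ovol1, a zinc finger factor of epidermal differentiation, rose from 0.997 and 0.835 FPKM to 8.31 and 6.95 FPKM (2.17, SE 0.26, adjusted p = 0.0043). Barx2, a homeobox gene of hair follicle remodelling, fell from 40.4 and 51.2 FPKM to 2.23 and 3.16 FPKM (-3.66, SE 0.29, adjusted p = 0.0012), and Foxq1, the satin hair gene, fell from 12.3 and 11.1 FPKM to 0.612 and 0.08045 FPKM (-3.27, SE 0.31, adjusted p = 0.0019). After TPM rescaling the decreases of Barx2 and Foxq1 were still called, and the increases of Foxn1 and Ovol1 were not.

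Of 17 factors of epidermal differentiation, 12 were tested, 5 were higher and 2 lower, with a median log2 difference of 0.68. For all tested genes the shares were 10.8% higher and 9.15% lower. Zfp750, a p63-dependent factor of terminal differentiation, rose from 1.09 and 0.651 FPKM to 12.8 and 6.44 FPKM (2.45, SE 0.38, adjusted p = 0.0095). Ehf, an ETS factor of epithelia, rose from 0.0351 FPKM and a listed 0 to 5.64 and 3.30 FPKM (2.39, SE 0.29, adjusted p = 0.0044). Grhl3, a grainyhead factor of the barrier, rose by 1.499 (adjusted p = 0.022), and Klf4, a Kruppel-like factor of the barrier, by 1.48 (adjusted p = 0.031). In the other direction, Maf, a bZIP factor of late keratinocyte differentiation, fell from 6.23 and 6.31 FPKM to 0.0172 and 0.0304 FPKM (-2.83, SE 0.24, adjusted p = 0.0014), and Ovol2 fell from 4.01 and 4.45 FPKM to a listed 0 and 0.207 FPKM (-2.25, SE 0.25, adjusted p = 0.0031). Of the Ovol genes, Ovol1, on the hair lineage list, was higher and Ovol2 lower. Each passed the filter only through the group where it was higher, so it could be called only in that direction. After TPM rescaling 1 gene of the list, Ehf, was higher and 2 were lower.

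The paralogs of the 10 factors numbered 31, of which 11 were listed at 0 in all libraries and 11 were tested. Counts of calls in these lists stand beside 10.8% higher and 9.15% lower among all tested genes. None of the tested paralogs was higher and 4 were lower, namely Lhx6, Nfatc2, Nfatc3 and Tcf4, with a median log2 difference of -0.89. Of 24 partners and cofactors, 19 were tested, 3 were higher (Ppp3ca, Id2 and Tle4) and 1 was lower (Tle2), with a median of -0.13. Of 21 hair follicle stem cell and basal keratinocyte markers, 11 were tested, 2 were higher (Itga6 and Itgb4) and 1 lower, with a median of 0.36. The marker that fell was Lrig1, a marker of junctional zone stem cells, at 23.5 and 19.6 FPKM in the 10p libraries and 8.85 and 9.87 FPKM in the 48p libraries (-1.12, SE 0.26, adjusted p = 0.033). After TPM rescaling, Nfatc2 was the 1 paralog still called and Lhx6, Nfatc3 and Tcf4 were not, and of the partners Ppp3ca and Tle4 were higher and Tle2 and Ldb1 lower, while Id2 was not called. Of the markers, Itga6, Itgb4 and Lrig1 all lost their calls in TPM (adjusted p = 0.14, 0.51 and 0.097), and 2 others gained one, Krt5 higher and Epcam, an epithelial adhesion gene, lower.

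**Figure D4:**
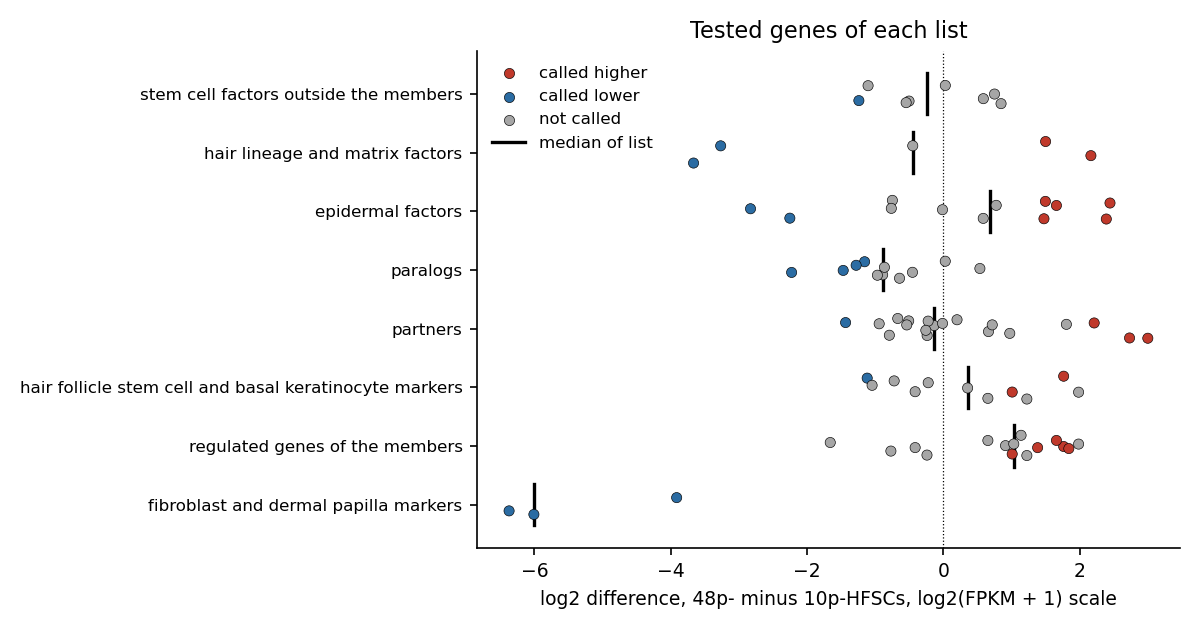
Log2 difference of 48p-HFSCs minus 10p-HFSCs on the log2(FPKM + 1) scale (horizontal axis) for each tested gene of 8 lists, where a point is 1 gene, red is called higher, blue called lower and grey not called, and a black bar is the median of the list. The median is -0.89 for the paralogs, 0.68 for the epidermal factors, 1.03 for the regulated genes and -6.01 for the 3 fibroblast and dermal papilla markers tested. Of these 3, Col1a2 and Sox2 passed the filter only through 10p-HFSCs.

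Markers of other cells moved between the same libraries. The 13 fibroblast and dermal papilla markers summed to 368 and 402 FPKM in 10p-HFSCs and to 5.88 and 4.17 FPKM in 48p-HFSCs. All 3 that were tested, Vim, Col1a2 and Sox2, fell, beside 9.15% called lower among all tested genes. Col1a2 and Sox2 passed the filter only through 10p-HFSCs, so they could only be called lower. Vim, an intermediate filament gene of mesenchyme that cultured epithelial cells can also express, went from 284 and 327 FPKM to 2.35 and 3.08 FPKM (log2 difference -6.37, adjusted p = 0.00056). Col1a2 went from 67.6 and 59.3 FPKM to a listed 0 in both 48p libraries (-6.01, adjusted p = 0.00056), while the defining fibroblast markers Col1a1, at most 0.903 FPKM, and Thy1, Lum, Dcn and Twist1, all listed at 0 in the 4 libraries, were nearly absent at both passages. Twist2, a dermal factor gene on the same list that was too low to be tested, went the other way, at 0.0441 and 0.0615 FPKM in 10p-HFSCs and at 3.35 and 0.849 FPKM in 48p-HFSCs. The decreases of Sox9, Tcf3 and Runx1 and of the paralogs ran between the same libraries as that of Vim, and the part of such cells in them was not tested.

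The 5 leukocyte markers summed to 0.641 and 0.694 FPKM in 10p-HFSCs and to 64.3 and 104 FPKM in 48p-HFSCs. Nearly all of this was Cd74, the invariant chain of antigen presentation, at 0.335 and 0.201 FPKM against 61.2 and 102 FPKM (5.98, SE 0.34, adjusted p = 0.00085). Lyz2, the myeloid lysozyme, was the other of the 2 tested and also rose, from 0.286 and 0.479 FPKM to 3.04 and 1.96 FPKM (1.32, adjusted p = 0.023). Lyz2 was not called after TPM rescaling or after the length and GC correction (0.93). Cd74 and Lyz2 both passed the filter only through 48p-HFSCs, so they could only be called higher. Of all tested genes, 10.8% were called higher. The pan-leukocyte gene Ptprc was at most 0.0711 FPKM and Cd3e and Tyrobp were listed at 0. The 6 melanocyte markers summed to 1.503 and 1.426 FPKM against 4.06 and 11.9 FPKM, with 1 tested and 0 called: Tyr, the rate-limiting enzyme of melanin, was at 0.0945 and 0.286 FPKM against 1.33 and 9.48 FPKM (adjusted p = 0.083). The 5 endothelial markers summed to 2.87 and 2.59 FPKM against 1.37 and 0.292 FPKM, with 1 tested and 0 called, Pecam1 (-1.11, adjusted p = 0.061).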

How the data were processed

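RNA-seq was compared between 10p-HFSCs and 48p-HFSCs, 2 libraries each, grouped by the passage and replicate number in the labels. Libraries came from a stranded mRNA kit, with single-end reads of 101 bp. Per the submitters' processing notes, reads were mapped to mm10 with TopHat2 2.1.1, Bowtie2 2.2.8 and SAMtools 0.1.18, and the authors deposited FPKM values per gene symbol from Cuffdiff 2.2.1; the paper's methods give other versions of Bowtie2 and SAMtools. The gene annotation, the strand setting and the treatment of multi-mapped reads are not given in the sources used here. FPKM is defined by mapped fragments and exon length, so it carries no read total, and no counting interval is given. Whether the deposited values were also scaled between libraries was not tested. Median-of-ratios scaling moved them little (median log2 difference of all tested genes -0.032, against -0.034 without it), so it was hardly a separate check.

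Here FPKM values were taken to log2 with a pseudocount of 1, and limma 3.58.1 (R 4.3.3; lmFit, then eBayes with a variance trend) was run on the 11018 genes that reached 1 FPKM in 2 or more libraries, tested beforehand on simulated data. An exact permutation test of 2 against 2 libraries cannot give a p below 0.333 and was not used. Relative depth was taken from the most common ratio of low FPKM values, and so measures the factor that scaled each library. Positions are those of GENCODE M21 (GRCm38, the assembly called mm10).

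Named genes were the 10 factors, Tcf7l1, in each list up to 4 called genes with the largest absolute difference per direction, Krt5, Krt14, Krt15, Cd34, Itga6 and the defining marker of each other cell type. The factors and lists were chosen with earlier results of these data known. The family sums, the length and GC correction, and the other genes named without a call, as well as Klf4, Twist2, Epcam, Cdk4 and some calls in several lists, were chosen after their values were seen. Alternatives were another pseudocount, other filters, TPM, median-of-ratios and quantile scaling, a constant variance prior, other limits, the replicate number as a block, leaving out each library, and a correction for transcript length and GC content by splines with 4 degrees of freedom. The lists' medians stand beside -0.03 for all tested genes, and their counts of calls beside 10.8% higher and 9.15% lower. Some called genes of the lists are counted but not reported by name here. Computations used Python 3.11.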

Additional observations from a re-analysis of the deposited data

How the results depend on the processing

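No difference of the 7 tested factors changed sign under any alternative. Of the factors, 1 was called higher and 3 lower. After TPM rescaling these counts were 0 and 1, and with no filter on low values the count lower was 1. Leaving out 1 library gave 0 to 2 higher and 1 to 3 lower; a group left with 1 library is then assumed to vary like the other. Sox9 kept its call in every leave-one-out fit. Tcf3 (adjusted p 0.29 and 0.34) and Runx1 (0.18 and 0.3) lost theirs without either 10p library, as did Gata3 without replicate 1 of 10p-HFSCs (0.057), and Gata3 was not tested without either 48p library because it then failed the filter. Tcf3 without replicate 1 and Runx1 without replicate 2 of 48p-HFSCs had log2 differences of -0.963 and -0.997, just short of the fold limit. Over all genes, 1189 were called higher and 1008 lower. TPM rescaling gave 623 higher and 812 lower, no filter gave 637 lower, and leaving out 1 library gave 611 to 1609 higher and 217 to 2131 lower, the lowest counts without replicate 1 of 10p-HFSCs and the highest without replicate 1 of 48p-HFSCs. The cause of these shifts was not tested.

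The correction for transcript length and GC content, added after the data were seen, gave 1 factor higher and 1, Sox9, lower. Same-numbered libraries shared only a number: their deviations from the group means correlated at 0.408 across genes, with 2 libraries per group. With the replicate block, 2 factors were higher, as Vdr was then called (adjusted p = 0.024), and 3 lower, and with the length and GC correction and the block 2 were higher and 1 lower. Over all genes the block gave 1613 higher and 1497 lower. Low values are least precise in replicate 2 of 48p-HFSCs, which had an estimated 46.7% of the depth of the deepest library.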

Other observations

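The Groucho/TLE corepressors, which T cell factors, RUNX factors and other repressors recruit, were on the partner list and moved in different directions. Tle4 was listed at 0 in both 10p libraries and was at 6.16 and 5.18 FPKM in 48p-HFSCs (log2 difference 2.73, SE 0.24, adjusted p = 0.0016). Tle2 was at 1.67 and 2.76 FPKM in 10p-HFSCs and at 0.1405 and 0.208 FPKM in 48p-HFSCs (-1.43, SE 0.26, adjusted p = 0.017). Tle1 and Tle3, the most abundant, overlapped between the groups, at 21.3, 22.4, 11.5 and 28.2 FPKM and at 17.7, 20.2, 19.0 and 25.3 FPKM in the 4 libraries. Both called genes kept their calls after TPM rescaling. Ctnnb1, the gene of beta-catenin, which competes with TLE proteins for T cell factors, was at 195 and 159 FPKM against 168 and 135 FPKM, with overlapping groups.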
